A study of Homo sapiens with 9 samples.

Results

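Open chromatin was examined around 6 receptor tyrosine kinase genes: EGFR, ERBB2 and ERBB3 of the epidermal growth factor receptor family, MET, FGFR1 and IGF1R. A hg19 window was set around each gene, and every region in which at least 1 of the 9 deposited peak lists overlapped the window was kept, after peaks that shared at least 1 bp were merged. This gave 93 of the 94773 merged regions of the series. The windows, not measured values, chose these regions, but the genes were chosen with earlier results of these data known. Calls, widths and score ranks were compared between groups. No hg19 gene annotation was used here, and a region is therefore given by its position and by the window it lies in, not as a promoter, exon or intron of the gene.

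The libraries come from VCaP, a prostate cancer cell line grown from a vertebral metastasis that expresses the androgen receptor, and were made by ATAC-seq, in which a transposase cuts and tags open DNA. There were 3 libraries of VCaP16, an enzalutamide-resistant derivative of VCaP kept in 16 µM enzalutamide, 3 of VCaP exposed to 10 µM enzalutamide for 96 h (VCaP_ENZ), and 3 of VCaP in DMSO, the solvent (VCaP_DMSO). Enzalutamide is an androgen receptor antagonist. All 9 libraries carry the genotype label WT, and both lines were grown in DMEM with fetal bovine serum. No library of VCaP16 without drug and none of VCaP at 16 µM is among the samples, so the resistant line, its dose and its length of exposure cannot be told apart. The labels do not say whether libraries of a group came from separate cultures, and p-values measure the spread between these libraries, which may be technical. Bulk libraries also cannot tell fewer open cells from less openness per cell. The lists name no genes, so the cell identity of the libraries was not checked against marker genes.

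The lists held 53646 to 68921 peaks. VCaP16 replicate 3 was the longest, with 36.4 Mb of called sequence, where each of the others had 25.9 to 32.5 Mb. Read depth is not given in the lists and is unknown here. Each peak carries the authors' score, a −log10 p or q value that was never under 2. A score grows with depth, and regions are therefore compared below by rank within each library. Of the 94773 regions, 33033 were called in all 9 libraries, and the score percentile is the position of a region among these 33033 in 1 library, with the strongest at 100.

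Receptor tyrosine kinases sit in the cell membrane, bind a growth factor outside the cell and phosphorylate each other and their partners inside it, which feeds the RAS-MAPK and PI3K-AKT pathways. EGFR binds EGF and TGF-alpha. ERBB2 (HER2) has no known ligand of its own and is the preferred partner of the other family members, while ERBB3 (HER3) binds neuregulins, has a weak kinase and recruits PI3K. MET is the receptor of hepatocyte growth factor, FGFR1 a receptor of fibroblast growth factors, and IGF1R the receptor of insulin-like growth factors. In prostate cancer these receptors are studied as sources of growth signalling when androgen receptor signalling is blocked.

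The RefSeq promoters of ERBB2 and IGF1R, whose windows held the regions past the test threshold, and those at both RefSeq starts of EGFR, which differ in base composition, are printed to show the sequence at the annotated starts. Each runs 250 bases before to 50 after a start on GRCh38.p14, on the plus strand, with matches to the GC box GGGCGG and to the AP-1 motif TGANTCA on either strand in capitals. They were not placed on the hg19 regions, and they say nothing of which peaks lie on them.
ERBB2, chr17:39687844-39688143: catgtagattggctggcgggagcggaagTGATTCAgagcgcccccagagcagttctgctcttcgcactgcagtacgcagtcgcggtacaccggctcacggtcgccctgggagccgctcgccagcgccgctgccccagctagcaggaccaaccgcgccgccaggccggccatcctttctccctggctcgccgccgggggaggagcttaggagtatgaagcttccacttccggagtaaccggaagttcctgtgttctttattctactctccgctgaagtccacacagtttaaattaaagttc
IGF1R, chr15:98648289-98648588: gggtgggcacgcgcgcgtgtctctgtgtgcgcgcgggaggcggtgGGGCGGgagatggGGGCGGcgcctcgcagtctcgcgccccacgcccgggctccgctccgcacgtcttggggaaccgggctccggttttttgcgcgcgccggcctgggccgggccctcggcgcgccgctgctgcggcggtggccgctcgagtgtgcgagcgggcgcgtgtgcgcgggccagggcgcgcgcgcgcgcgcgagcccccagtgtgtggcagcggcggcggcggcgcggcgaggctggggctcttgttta
EGFR, first start, chr7:55018767-55019066: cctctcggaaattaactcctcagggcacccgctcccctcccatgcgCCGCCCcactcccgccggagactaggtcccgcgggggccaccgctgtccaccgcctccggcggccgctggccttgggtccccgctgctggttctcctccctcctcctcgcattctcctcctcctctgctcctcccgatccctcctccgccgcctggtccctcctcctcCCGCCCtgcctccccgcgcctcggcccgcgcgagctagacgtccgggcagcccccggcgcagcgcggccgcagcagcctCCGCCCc
EGFR, second start, chr7:55109589-55109888: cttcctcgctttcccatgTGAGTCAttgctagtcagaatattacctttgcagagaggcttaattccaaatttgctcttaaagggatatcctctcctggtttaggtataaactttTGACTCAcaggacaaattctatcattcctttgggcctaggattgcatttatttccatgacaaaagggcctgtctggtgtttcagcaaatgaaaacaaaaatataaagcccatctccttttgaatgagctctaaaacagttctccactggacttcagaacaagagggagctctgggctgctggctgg

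The IGF1R promoter was 79.7% G and C and held 55 CpG, at percentile 99.6 of 35114 RefSeq promoters of the same 300 bases, whose medians were 58.7% and 14 CpG. The first EGFR start had 75.3% G and C and 33 CpG, whereas the second had 42% and 1 CpG. The promoter of ERBB2 had 60.7% and 24 CpG, and that of MET, chr7:116671946-116672245, had 69.3% and 30 CpG. GC boxes numbered 3 at the first EGFR start, 3 at MET, 2 at IGF1R and 0 at ERBB2, and 45% of all promoters held at least 1. An AP-1 match, present in 7.71% of promoters, was found once at ERBB2 and 2 times at the second EGFR start. The androgen response half-site AGAACA, in 14.8% of promoters, had 1 match at ERBB2 and 1 at the second EGFR start, and the forkhead motif TGTTTAC, in 3.42%, had none in these 5. The ETS core CCGGAAG, in 10.3%, had 2 matches at ERBB2, and the E-box CACGTG, in 7.26%, had 1 at MET. Motifs were searched on both strands and counted independently, overlaps included, and a match is only these letters. Promoters of 4 of the 6 genes were examined. ERBB3 had no match in the promoter table. Entries on chromosome 8, where FGFR1 lies, were left out, so whether FGFR1 has one was not examined.

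Regions were unevenly spread over the 6 windows. IGF1R, with the longest window (420 kb), held 38 regions, FGFR1 15 in 160 kb, EGFR 14 in 290 kb, MET 11 in 230 kb, ERBB2 10 in 90 kb and ERBB3 5 in 70 kb. Per 100 kb, ERBB2 held the most regions with 11.1, followed by FGFR1 with 9.38, IGF1R with 9.05 and ERBB3 with 7.14. EGFR (4.83) and MET (4.78) held the fewest. The order differed for regions called in all 9 libraries, where ERBB3 led with 7.14 per 100 kb. ERBB2 followed with 5.56, FGFR1 with 4.38, IGF1R with 3.33, MET with 1.30 and EGFR with 1.03. The genes next to each receptor on GRCh38.p14 are SEC61G and LANCL2 for EGFR, PGAP3 and MIEN1 for ERBB2, RPS26 and PA2G4 for ERBB3, CAV1 and CAPZA2 for MET, LETM2 and TACC1 for FGFR1, and ARRDC4 and PGPEP1L for IGF1R. Which of them lie inside the hg19 windows was not examined.

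A core of regions was called in every library. Of the 93 regions, 37 were called in all 9 libraries, 38 in 2 to 8 and 18 in a single library. A region called in at least 2 of the 3 libraries of some group is termed reproducible, and 69 of the 93 were. Of these, 53.6% were called in all 9 libraries, where the figure over the series was 49.97%. The genes differed among themselves in this share. All 5 ERBB3 regions were called in all 9 libraries, whereas 14 of 25 reproducible regions were so called in the IGF1R window, 5 of 9 in that of ERBB2, 7 of 13 in FGFR1, 3 of 8 in MET and 3 of 9 in EGFR. The 37 core regions had a median merged width of 901 bp and their calls a median position of 80.5% in the whole list of a library, where all regions called in 9 libraries had 838 bp and 70.5%. Calls in the other 56 regions lay at a median position of 24.1%, close to the 24.5% of such regions over the series.

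**Figure D1:**
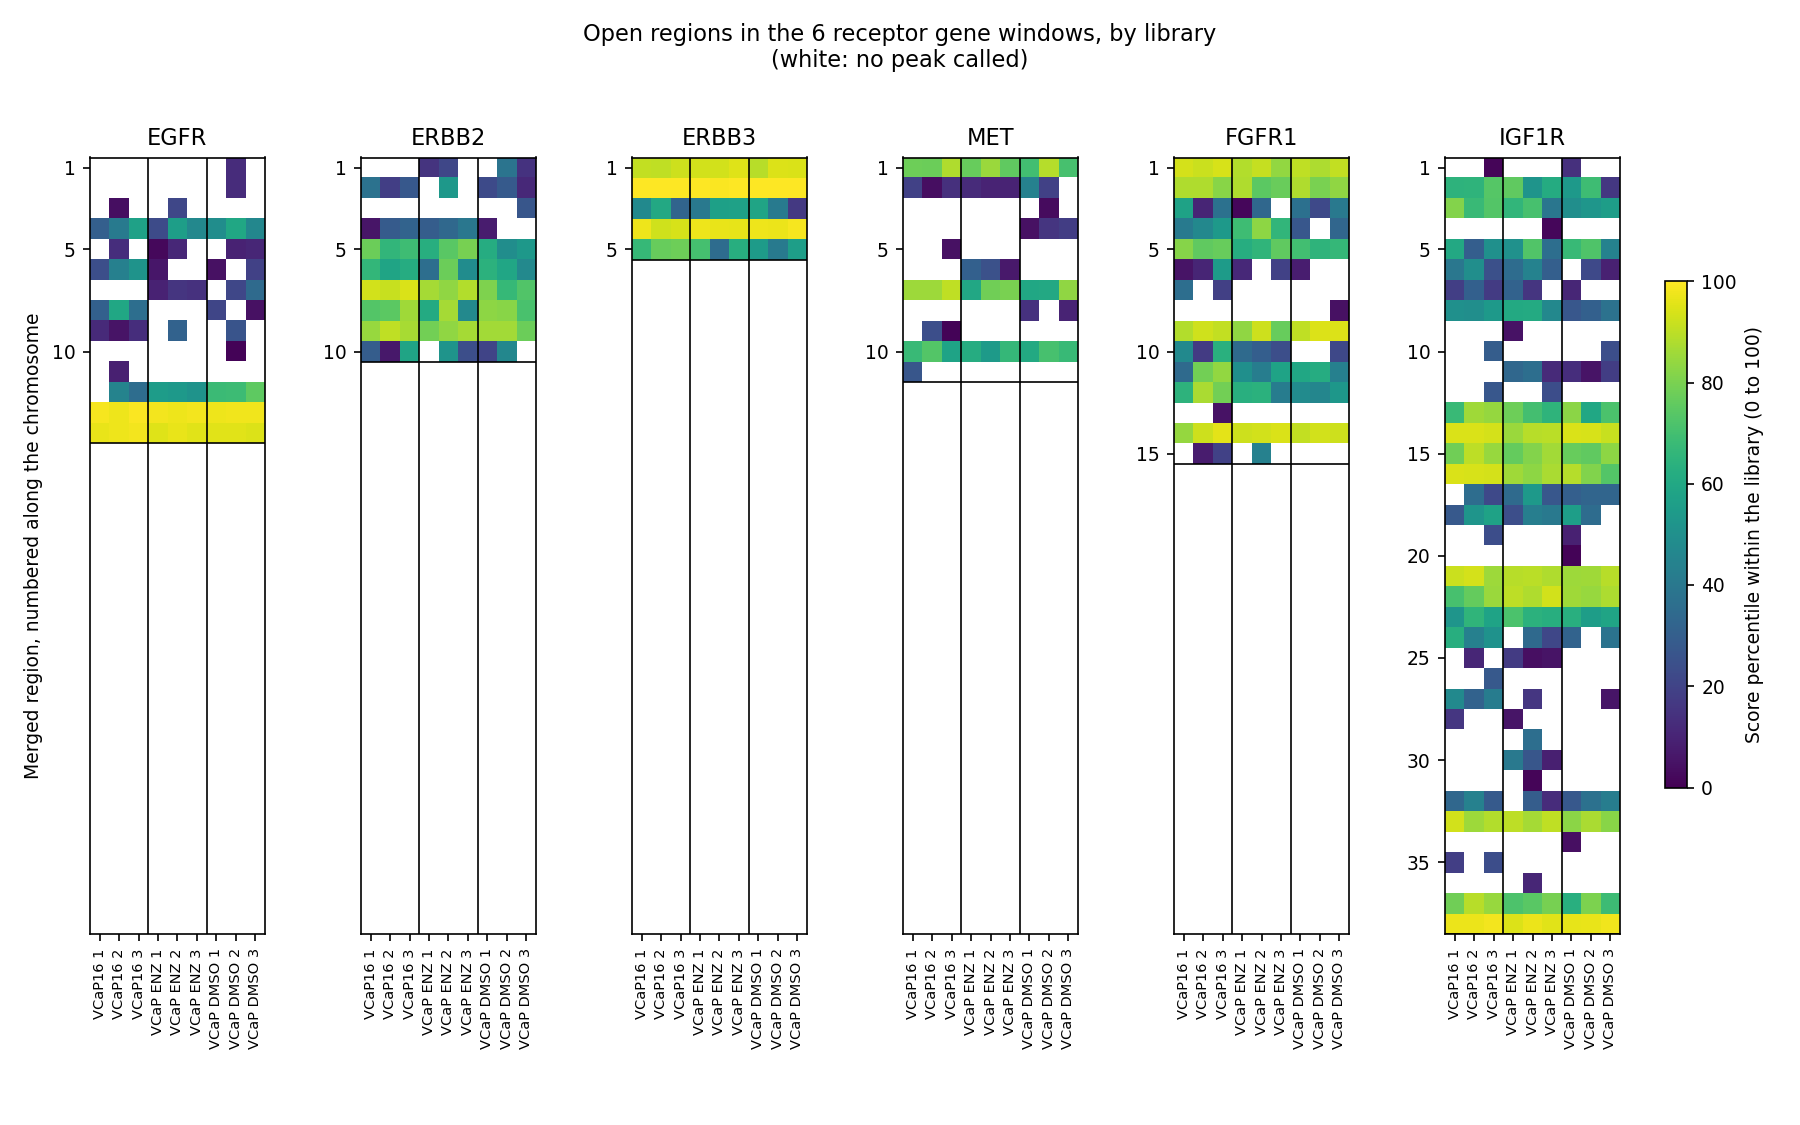
Calls of the 93 regions in the 9 libraries, with 1 row per region within each gene, columns for VCaP16, VCaP_ENZ and VCaP_DMSO libraries from left to right, a cell coloured by the score percentile within the whole list of the library, and white for no call. Full rows are the 37 regions called in all 9 libraries, among them all 5 of ERBB3, and the scattered cells are the 56 others.

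The total called sequence of no window passed the test of VCaP16 against the 6 VCaP libraries. It was taken as called bp in the window per Mb called in the library, so that a longer list does not raise it. FGFR1 came nearest to a difference, with 239.4, 253.3 and 233.3 bp per Mb in VCaP16, 226.0, 226.1 and 232.5 in VCaP_ENZ and 216.4, 246.7 and 222.3 in VCaP_DMSO. The VCaP16 mean was 242 ± 10.3 (SD, n = 3) and that of the 6 VCaP libraries 228.3 ± 10.5 (SD, n = 6), a difference of 13.7 (two-sided exact permutation test over 84 splits, p = 0.119). All 3 VCaP16 libraries lay above all 3 VCaP_ENZ libraries, but VCaP_DMSO replicate 2 lay above 2 of them. Without VCaP_DMSO replicate 2 the difference was 17.4 (exact permutation p = 0.0179). That is the smallest p the remaining splits allow, because the library left out was the only one of VCaP above any of VCaP16. Without VCaP16 replicate 2 the difference was 8.03 (exact permutation p = 0.393), and with peaks of score 5 or more 8.21 (0.429). At IGF1R the values were 432.3, 430.9 and 428.6 in VCaP16, 449.8, 463.3 and 483.8 in VCaP_ENZ and 444.0, 406.5 and 428.8 in VCaP_DMSO (VCaP16 minus VCaP −15.4, exact p = 0.405). The sign turned with a score of 5 or more (8.14), with lists of equal length (12.4) and in unscaled bp (765.7 bp). All 3 VCaP_ENZ libraries exceeded all others at IGF1R, which was noticed after the values were seen and was not tested. At MET, the window with the least open sequence, VCaP16 had 94.1, 85.0 and 75.6, VCaP_ENZ 74.4, 112.7 and 98.0, and VCaP_DMSO 118.5, 101.3 and 91.4 (−14.5, exact p = 0.190).

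The windows of the epidermal growth factor receptor family did not pass either, and VCaP16 overlapped both VCaP groups in each. EGFR had 148.5, 173.3 and 136.2 bp per Mb in VCaP16, 155.4, 163.2 and 149.3 in VCaP_ENZ and 144.5, 196.7 and 166.7 in VCaP_DMSO (−9.98, exact p = 0.488). ERBB2 had 173.9, 150.4 and 143.5 in VCaP16, 147.7, 154.7 and 155.8 in VCaP_ENZ and 147.4, 153.5 and 157.6 in VCaP_DMSO (3.1, exact p = 0.679), and the sign of this difference rests on VCaP16 replicate 1, being −5.87 without it. ERBB3 had 126.5, 138.0 and 114.2 in VCaP16, 138.2, 127.4 and 144.1 in VCaP_ENZ and 126.8, 136.5 and 149.1 in VCaP_DMSO (−10.8, exact p = 0.155). The 6 p-values are two-sided, exact and unadjusted, with 0.0119 the smallest that 84 splits allow. In unscaled bp the EGFR and ERBB3 differences turned positive, at 106.5 and 35.5 bp.

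**Figure D2:**
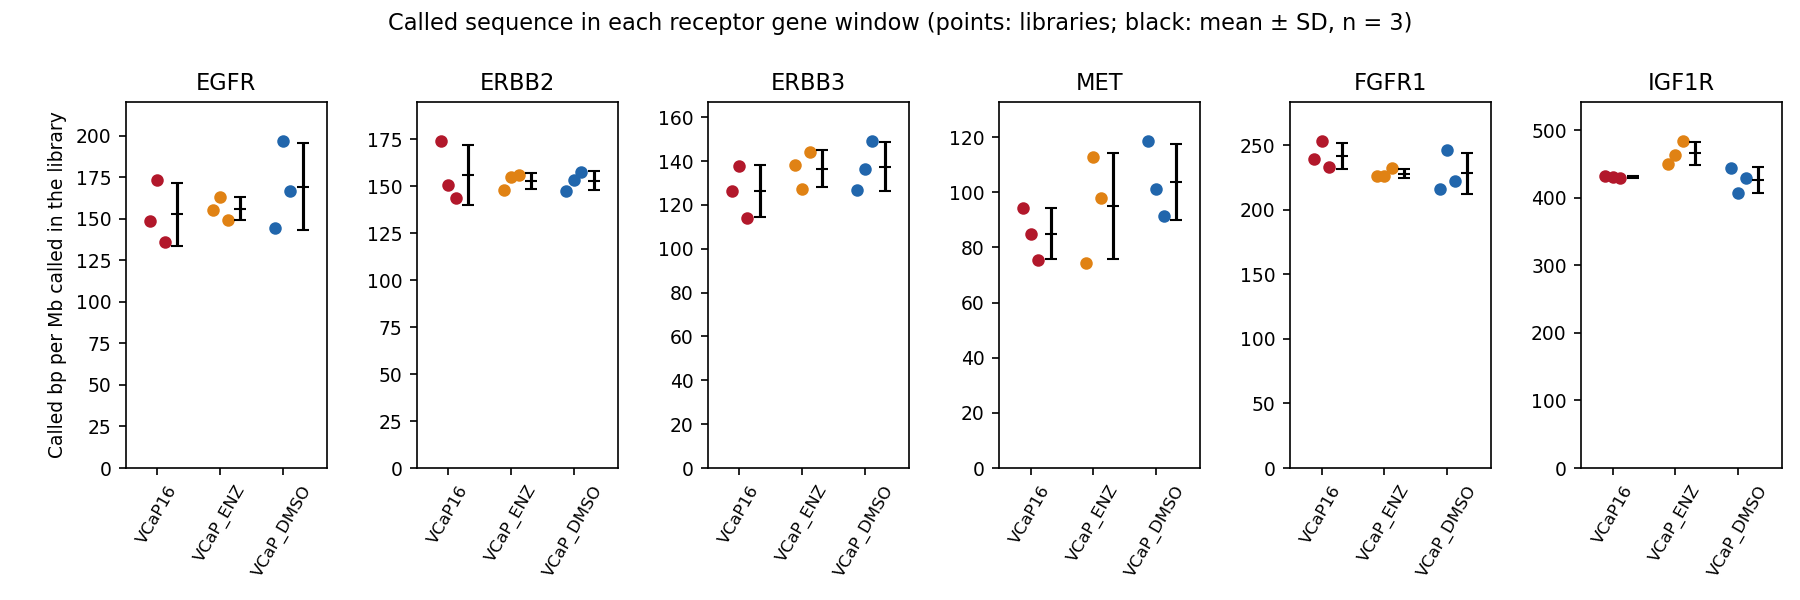
Called bp in each window per Mb called in the library, for VCaP16, VCaP_ENZ and VCaP_DMSO from left to right. Points are libraries and bars are means ± SD (n = 3), and all groups overlap except at IGF1R, where the 3 VCaP_ENZ libraries at 449.8 to 483.8 lie above the rest, and at FGFR1, where VCaP16 lies above VCaP_ENZ.

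The 37 regions called in all 9 libraries were compared by score rank with limma, in 1 fit over the 33033 common regions with Benjamini-Hochberg adjustment over all of them. Ranks were turned into normal scores, so that a difference of 1 is 1 SD of the whole distribution. Against VCaP_DMSO, 2 members had a higher rank in VCaP16 and 0 a lower one, 5.41% and 0.0% of the 37, where 1.84% and 0.999% of all regions did. At an unadjusted p under 0.05 there were 10 members (27.03%; 14.97% of all regions), 8 higher and 2 lower. Against VCaP_ENZ, 0 members were higher in VCaP16 and 1 was lower, where 0.621% and 0.575% of all regions were, and 6 members (16.2%; 13.3% of all regions) were under 0.05 unadjusted, 5 higher and 1 lower. For VCaP_ENZ against VCaP_DMSO the limma count was 0 in both directions, where 0.351% and 0.176% of all regions passed, and 5 members (13.5%; 11.7% of all regions) were under 0.05 unadjusted, 3 higher and 2 lower. The members called thus come to 3 regions, 1 at ERBB2 and 2 at IGF1R.

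The median of the 37 differences was 0.16 for VCaP16 minus VCaP_DMSO, where that of all regions was −0.02, and 25 of 37 members (67.6%) lay above 0, where 48.2% of all regions did. For VCaP16 minus VCaP_ENZ the median was 0.15 and 26 of 37 (70.3%) lay above 0, against 49.8% of all regions. Both share the VCaP16 libraries and are not independent. For VCaP_ENZ minus VCaP_DMSO the median was 0.07, with 21 of 37 (56.8%) above 0 and 49.4% of all regions. The median for VCaP16 minus VCaP_DMSO was 0.08 without VCaP16 replicate 2, and that for VCaP_ENZ minus VCaP_DMSO was 0.004 without VCaP_ENZ replicate 3.

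Regions whose groups did not overlap were also counted. All 3 score percentiles of VCaP16 lay above all 3 of VCaP_DMSO in 11 of 37 members (29.7%), where 10.1% of all regions did so, and below them in 2 (5.41%), where 9.8% did. The 2 below became 4 without VCaP_DMSO replicate 1 or 3 and 5 without VCaP16 replicate 2. The 11 were spread over all 6 windows, with 3 at FGFR1, 3 at IGF1R, 2 at ERBB2 and 1 each at EGFR, ERBB3 and MET. Against VCaP_ENZ, VCaP16 lay wholly above in 7 (18.9%; 8.59% of all regions) and wholly below in 2 (5.41%; 8.99%), and the 7 became 13 without VCaP_ENZ replicate 1, 11 without VCaP_ENZ replicate 2 and 12 without VCaP16 replicate 1. VCaP_ENZ lay wholly above VCaP_DMSO in 3 (8.11%; 8.27%) and wholly below in 1 (2.7%; 7.52%), and both counts moved with single libraries. The 3 above became 8 and 5 without VCaP_ENZ replicates 2 and 3, and 6 without VCaP_DMSO replicate 2 or 3. The 1 below became 4 without VCaP_ENZ replicate 1 or 2, 2 without VCaP_ENZ replicate 3 and 3 without VCaP_DMSO replicate 1. Fewer libraries overlap less often by construction, and with a library left out 12.25% to 15.38% of all regions did not overlap in a given direction. The 37 members also ranked higher than the common regions as a whole, with a median mean percentile of 64.3, where that of all was 48.1. Whether this bears on the shares of members and of all regions was not tested, and regions of the same window may not be independent.

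**Figure D3:**
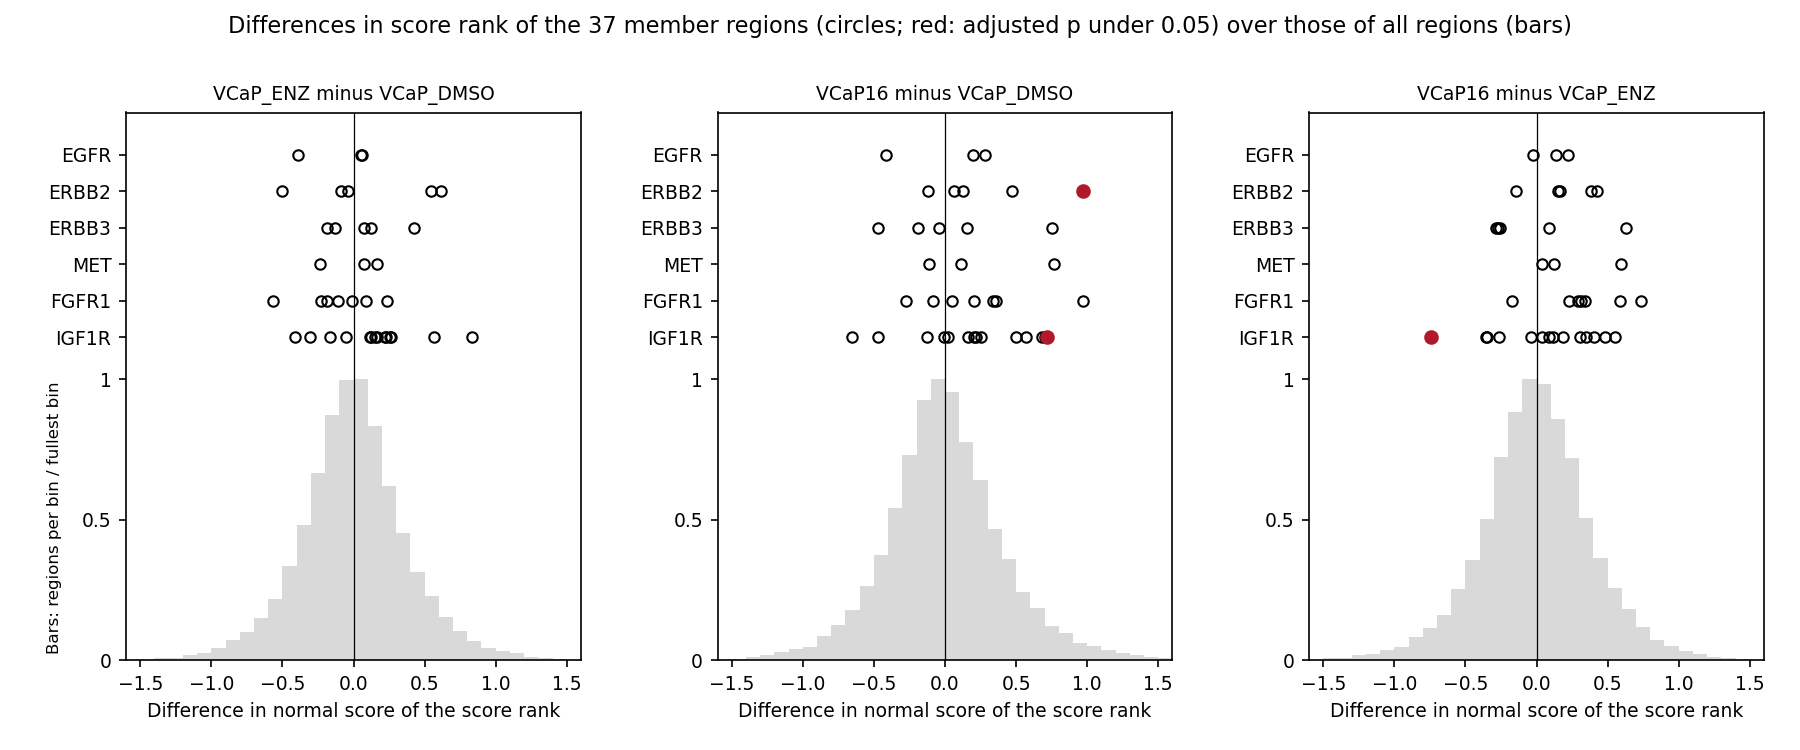
Differences in the normal score of the score rank for the 37 member regions by gene (circles, red where the limma adjusted p is under 0.05), above a histogram of all 33033 common regions scaled to its fullest bin. The left panel is VCaP_ENZ minus VCaP_DMSO, the middle VCaP16 minus VCaP_DMSO and the right VCaP16 minus VCaP_ENZ, and the 3 red circles are at ERBB2 and IGF1R in the last 2 panels.

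At ERBB2, the shared partner of the EGF receptor family, the region chr17:37861841-37862585 (745 bp) ranked higher in VCaP16 than in VCaP_DMSO, with VCaP_ENZ between. By the mean percentile over the 9 libraries it was also the best ranked common region of its window, at 73.4. The lead was narrow, with chr17:37893829-37895195 at 73.3, and in VCaP_DMSO that region ranked higher, with means of 72.3 against 56.8. The score percentiles of chr17:37861841-37862585 were 87.9, 85.6 and 88.5 in VCaP16, 77.8, 69.2 and 81.5 in VCaP_ENZ, and 66.3, 47.2 and 56.9 in VCaP_DMSO. No library of any group overlapped those of another, with VCaP16 highest, VCaP_ENZ between and VCaP_DMSO lowest. The difference in normal score was 0.97 ± 0.20 (SE) for VCaP16 minus VCaP_DMSO (limma adjusted p = 0.0016), and it stayed past 0.05 with each of the 9 libraries left out in turn (0.00147 to 0.0207). Leaving out a VCaP_ENZ library does not change this difference. Without a VCaP16 or VCaP_DMSO library the limma adjusted p was 0.00164 to 0.0207. For VCaP_ENZ minus VCaP_DMSO the difference was 0.55 (limma adjusted p = 0.235), and for VCaP16 minus VCaP_ENZ 0.42 (limma adjusted p = 0.342). Neither of these 2 steps passed the threshold alone.

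The other 4 core regions of the ERBB2 window did not pass in any comparison. A second region with VCaP_DMSO lowest was chr17:37843925-37844676, at 61.1, 43.7 and 39.4 in VCaP16, 41.4, 52.7 and 66.9 in VCaP_ENZ and 36.9, 24.1 and 29.9 in VCaP_DMSO, which was named after its values were seen. Both VCaP16 and VCaP_ENZ lay wholly above VCaP_DMSO there, with differences of 0.47 (limma adjusted p = 0.454) and 0.62 (0.378). The widest region, chr17:37893829-37895195 (1367 bp), overlapped between all groups, at 72.9, 83.3 and 73.0 in VCaP16, 65.8, 69.2 and 78.4 in VCaP_ENZ and 75.8, 77.2 and 64.0 in VCaP_DMSO. Called width gave no call at ERBB2, but the region chr17:37856082-37856723 was named after its values were seen, for the lowest p of the members in both comparisons with VCaP16, with 610 ± 11.4 bp called in VCaP16, 335.7 ± 188 bp in VCaP_ENZ and 359.7 ± 4.04 bp in VCaP_DMSO (SD, n = 3; limma adjusted p = 0.597 against VCaP_ENZ and 0.611 against VCaP_DMSO).

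At IGF1R, the insulin-like growth factor receptor, 2 regions passed, in opposite directions and in different comparisons. The region chr15:99346855-99347497 (643 bp) ranked higher in VCaP16, at 90.3, 89.7 and 86.7, than in VCaP_ENZ, at 76.8, 68.5 and 79.2, and in VCaP_DMSO, at 80.9, 68.6 and 56.9. All 3 VCaP16 libraries lay above all 6 VCaP libraries. The difference was 0.71 ± 0.19 (SE) against VCaP_DMSO (limma adjusted p = 0.0247) and 0.55 against VCaP_ENZ (0.158). This call is less firm than that at ERBB2, being lost without VCaP_DMSO replicate 2 (0.078) or 3 (0.184), and without VCaP16 replicate 1 (0.103), 2 (0.0971) or 3 (0.0579).

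The IGF1R region chr15:99395371-99396881 (1511 bp) ranked lower in VCaP16 than in VCaP_ENZ. It was at 50.7, 59.7 and 68.7 in VCaP16, 83.6, 78.0 and 89.0 in VCaP_ENZ, and 75.4, 74.4 and 79.7 in VCaP_DMSO. All 3 VCaP16 libraries lay below all 6 VCaP libraries. The difference was −0.74 ± 0.20 (SE) against VCaP_ENZ (limma adjusted p = 0.0464) and −0.47 against VCaP_DMSO (0.225). The call held in 1 of the 9 fits that leave out a library, without VCaP_DMSO replicate 2 (0.0494). It was lost without VCaP_DMSO replicate 1 (0.0543) or 3 (0.0559), VCaP_ENZ replicate 1 (0.128), 2 (0.0509) or 3 (0.221), and VCaP16 replicate 1 (0.192), 2 (0.102) or 3 (0.0531).

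Other IGF1R regions did not pass. The widest, chr15:99190129-99191860 (1732 bp), had the largest difference in mean percentile against VCaP_DMSO in the window, at 67.5, 46.9 and 46.5 in VCaP16, 45.8, 47.0 and 16.4 in VCaP_ENZ and 21.7, 27.9 and 32.7 in VCaP_DMSO. VCaP16 lay wholly above VCaP_DMSO, but the difference of 0.70 had a limma adjusted p of 0.242. The best ranked, chr15:99557849-99559174, was at 94.9, 95.0 and 96.0 in VCaP16, 91.5, 94.9 and 92.9 in VCaP_ENZ and 93.8, 94.8 and 96.4 in VCaP_DMSO, and its groups overlapped except that VCaP16 narrowly exceeded VCaP_ENZ in all 3 libraries.

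**Figure D4:**
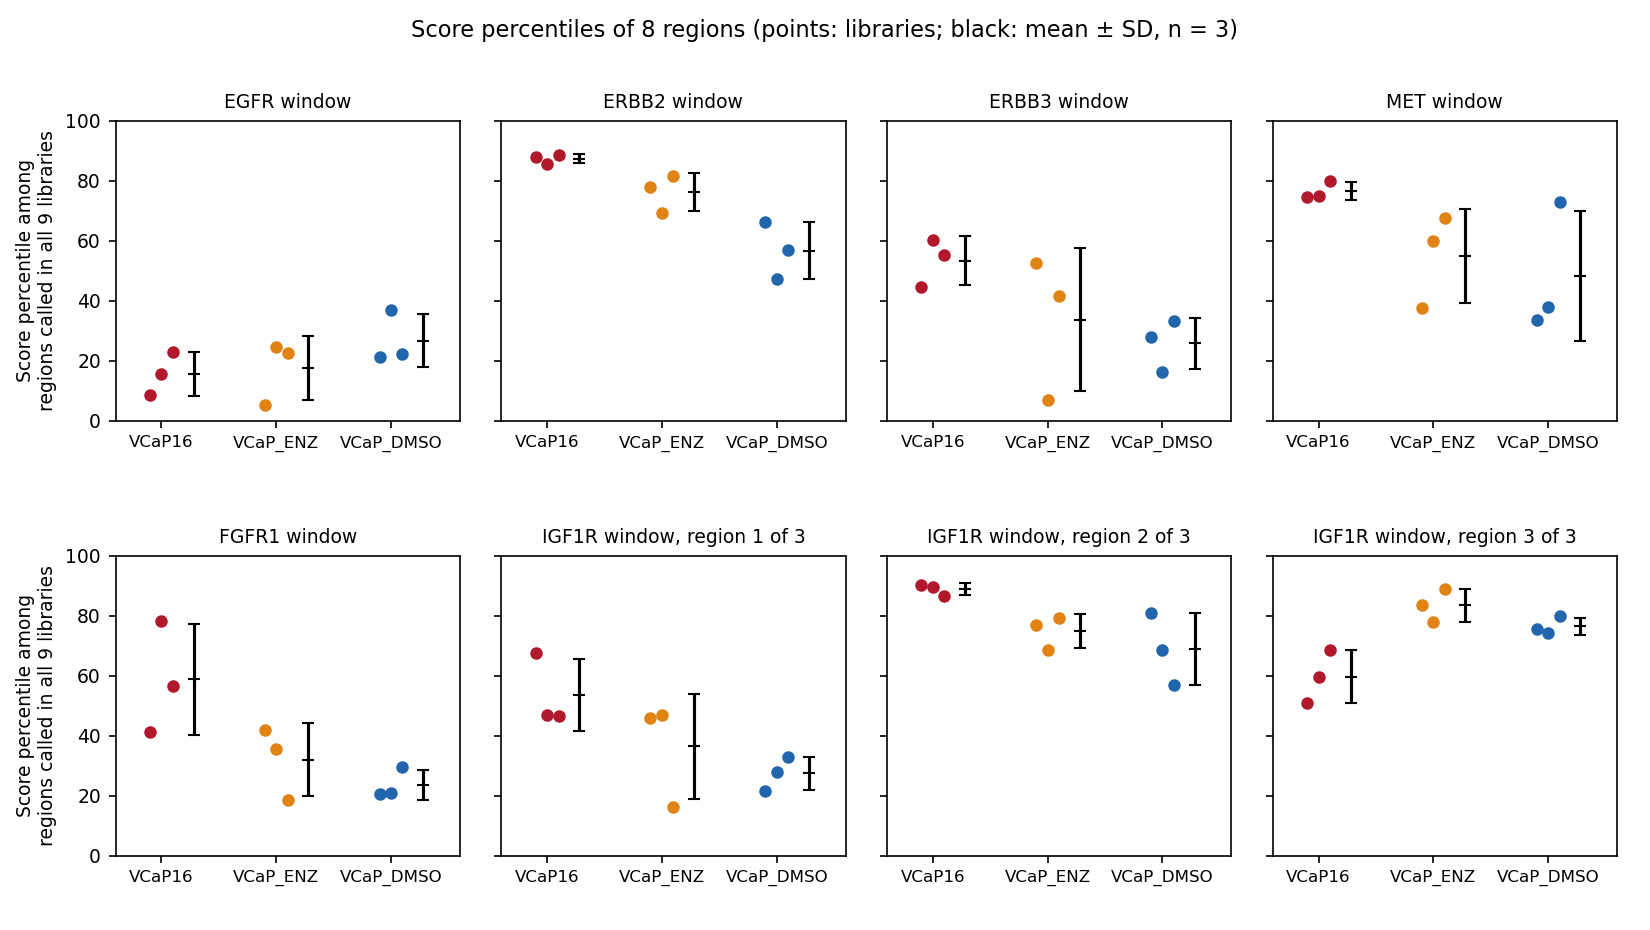
Score percentiles by library of the region with the largest difference in mean percentile between VCaP16 and VCaP_DMSO in each window, with the 2 IGF1R regions past the threshold as regions 2 and 3, for VCaP16, VCaP_ENZ and VCaP_DMSO from left to right, with points for libraries and bars for means ± SD (n = 3). The ERBB2 region shows 3 groups that do not overlap, with means of 87.3, 76.2 and 56.8, and the 2 IGF1R regions past the threshold move in opposite directions.

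The window of ERBB3, the neuregulin receptor, held the region with the highest mean score percentile of the 37. Whether the regions of this window belong to ERBB3 or to a neighbouring gene was not examined. Its best ranked region, chr12:56497676-56498806, lay between 99.2 and 99.7 in all 9 libraries, and all groups overlapped. A second strong region, chr12:56511681-56512537, was at 95.4, 87.5 and 87.4 in VCaP16, 96.1, 93.5 and 94.0 in VCaP_ENZ and 95.6, 95.4 and 97.8 in VCaP_DMSO. All 3 VCaP16 libraries lay below all 3 of VCaP_DMSO there, by so little for replicate 1 that only the other 2 were clearly lower, and the difference of −0.47 just missed the threshold (limma adjusted p = 0.055). It passed without VCaP16 replicate 1 (−0.65, limma adjusted p = 0.0112), and this region was named after its values were seen. The largest difference in mean percentile was at chr12:56519963-56520229, which crosses the edge of the window, with 44.6, 60.3 and 55.4 in VCaP16, 52.5, 6.86 and 41.8 in VCaP_ENZ and 27.9, 16.3 and 33.1 in VCaP_DMSO (0.75 for VCaP16 minus VCaP_DMSO, limma adjusted p = 0.239). VCaP16 lay wholly above VCaP_DMSO there, while VCaP_ENZ overlapped both. The widest, chr12:56472630-56474214 (1585 bp), was at 84.2, 83.4 and 84.5 in VCaP16, 88.9, 87.5 and 91.8 in VCaP_ENZ and 81.3, 91.3 and 90.5 in VCaP_DMSO. VCaP16 lay wholly below VCaP_ENZ in it, with −0.26 (0.525).

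The window of EGFR, the EGF receptor itself, had 3 core regions, 2 of them near the top of every list. The best ranked, chr7:55248756-55249656 (901 bp), was at 97.7, 95.7 and 98.7 in VCaP16, 97.1, 95.4 and 97.4 in VCaP_ENZ and 95.7, 96.4 and 96.7 in VCaP_DMSO, and all groups overlapped. The widest, chr7:55086304-55088136 (1833 bp), was also the widest of all 93 and had low ranks in every library, with 8.45, 15.5 and 22.8 in VCaP16, 5.23, 24.6 and 22.6 in VCaP_ENZ and 21.3, 36.9 and 22.2 in VCaP_DMSO. It had the largest difference in mean percentile of the window, −0.41 in normal score for VCaP16 minus VCaP_DMSO (limma adjusted p = 0.662). The remaining core region, chr7:55322361-55323860, named after its values were seen, was at 94.5, 95.8 and 96.2 in VCaP16, 92.3, 94.1 and 92.6 in VCaP_ENZ and 92.5, 92.7 and 91.4 in VCaP_DMSO. VCaP16 lay above all 6 VCaP libraries in it, with 0.28 against VCaP_DMSO (limma adjusted p = 0.3203). A region called in 8 libraries, chr7:55245273-55245823, also named after its values were seen, had no call in VCaP16 replicate 1 and scores of 10.9 and 9.46 in replicates 2 and 3, 13.4, 14.3 and 11.9 in VCaP_ENZ, and 22.2, 19.7 and 23.2 in VCaP_DMSO. Its 3 highest scores were the 3 of VCaP_DMSO, and as a region not called in every library it was outside the rank test. Scores grow with depth, but its positions in the whole list of each library had the same order of groups. They were 44.7% and 35.9% in VCaP16 replicates 2 and 3, 55.4%, 53.9% and 51.3% in VCaP_ENZ, and 68.0%, 68.4% and 75.0% in VCaP_DMSO.

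In the window of MET, the hepatocyte growth factor receptor, the core regions were of middling rank. The best ranked, chr7:116311781-116312558, was at 62.1, 61.6 and 75.6 in VCaP16, 62.7, 71.7 and 61.1 in VCaP_ENZ and 48.3, 81.7 and 53.7 in VCaP_DMSO. All groups overlapped, and VCaP_DMSO replicate 2 was the highest of the 9. The region chr7:116420754-116421412 was at 74.7, 74.9 and 80.1 in VCaP16, 37.6, 59.8 and 67.6 in VCaP_ENZ and 33.6, 37.9 and 73.0 in VCaP_DMSO. All VCaP16 libraries lay above all 6 VCaP libraries, and the difference against VCaP_DMSO was 0.77 (limma adjusted p = 0.0873). It passed without VCaP_DMSO replicate 3, the highest of its group (1.09, limma adjusted p = 0.0194). The widest, chr7:116449456-116450830 (1375 bp), was at 46.1, 55.1 and 23.9 in VCaP16, 40.4, 22.7 and 47.6 in VCaP_ENZ and 35.1, 52.7 and 48.8 in VCaP_DMSO, with all groups overlapping.

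In the window of FGFR1, a fibroblast growth factor receptor, the best ranked region was also the widest, chr8:38367237-38368823 (1587 bp). It was at 72.8, 87.1 and 91.1 in VCaP16, 87.5, 87.2 and 90.7 in VCaP_ENZ and 83.99, 88.5 and 87.4 in VCaP_DMSO, and VCaP16 replicate 1 was the lowest of the 9. The region chr8:38352502-38353534 was at 41.4, 78.3 and 56.6 in VCaP16, 42.0, 35.5 and 18.5 in VCaP_ENZ and 20.4, 21.0 and 29.4 in VCaP_DMSO. VCaP16 lay wholly above VCaP_DMSO, and the difference, 0.97, was as large as at ERBB2 but with a larger SE of 0.31 (limma adjusted p = 0.0732).

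Called width of the 37 regions gave no call in any comparison. limma called 0 members and 0.0% of all regions. At an unadjusted p under 0.05 there was 1 member (2.7% of the 37) in each comparison. Over all regions there were 2524 (7.6%) for VCaP16 against VCaP_DMSO, 2228 (6.7%) for VCaP16 against VCaP_ENZ, and 2323 (7.0%) for VCaP_ENZ against VCaP_DMSO.

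Among the 69 reproducible regions, 7 were called in all 3 libraries of 1 group and in none of another. Their scores were 3.32 to 15.2, and none was a core region by definition. Such patterns were not tested singly, since an exact test of 3 libraries against 3 cannot go below p = 0.1. For VCaP16 against VCaP_DMSO, 0 of 69 were called in all VCaP16 and no VCaP_DMSO libraries, where 2.33% of all reproducible regions were, and 2 (2.9%) the other way, where 0.762% were. The 0, a count with no p-value, became 3 without VCaP_DMSO replicate 1, 1 without replicate 2 and 2 without replicate 3, and 2 without VCaP16 replicate 1 or 2. The count over all regions also grew in these, to 2150 to 3129, where it was 1543 with all libraries. The 2 became 4 without VCaP_DMSO replicate 1, with 915 and 504 over all regions. For VCaP16 against VCaP_ENZ the counts were 1 (1.45%; 1.62% of all) and 4 (5.8%; 0.588%), and for VCaP_ENZ against VCaP_DMSO 3 (4.35%; 0.936%) and 1 (1.45%; 0.799%). The 1 region of VCaP16 against VCaP_ENZ became 2 without VCaP_ENZ replicate 1, 4 without replicate 2, 2 without VCaP16 replicate 1 and 3 without VCaP16 replicate 2, while the count over all regions was 1571 to 2466 in these and 1068 with all libraries. The 1 region of VCaP_DMSO and not VCaP_ENZ became 3 without VCaP_DMSO replicate 2 and 2 without VCaP_ENZ replicate 2, with 1151 and 1337 over all regions and 528 with all libraries.

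At EGFR, 2 regions went opposite ways between VCaP16 and VCaP_ENZ. The region chr7:55168994-55169600 had scores of 7.55, 15.2 and 9.56 in VCaP16, no call in VCaP_ENZ, and 6.76 and 3.32 in VCaP_DMSO replicates 1 and 3. Its VCaP16 calls reached as far as 59.5% of the list in replicate 2, the highest of these 7 regions. The region chr7:55148693-55149380 had no call in VCaP16, scores of 4.09, 5.50 and 5.08 in VCaP_ENZ, and 6.06 and 8.48 in VCaP_DMSO replicates 2 and 3.

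At MET, 2 regions were each called in a single group. The region chr7:116370595-116371202 (608 bp) had no call in VCaP16, scores of 7.61, 7.01 and 3.86 in VCaP_ENZ, and no call in VCaP_DMSO. The region chr7:116366397-116366648 (252 bp), a few kb away, had no call in VCaP16 or VCaP_ENZ and scores of 3.71, 5.07 and 5.67 in VCaP_DMSO. VCaP16 replicate 3 had a peak of score 3.44 in the next merged region, chr7:116366679-116366867, so this pattern rests on the peaks not touching. Both regions are low in their lists, at 6.7% to 30.6% for the first and 4.61% to 18.1% for the second.

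At IGF1R there were 3 such regions, all called in VCaP_ENZ. The region chr15:99458520-99458925 had no call in VCaP16, scores of 9.49, 7.49 and 4.31 in VCaP_ENZ and no call in VCaP_DMSO. The region chr15:99418017-99418704 had a score of 4.54 in VCaP16 replicate 2 alone, 5.49, 3.53 and 3.47 in VCaP_ENZ, and no call in VCaP_DMSO. The region chr15:99303478-99304440 (963 bp) had no call in VCaP16, scores of 7.96, 9.41 and 4.58 in VCaP_ENZ, and 5.12, 3.47 and 5.67 in VCaP_DMSO. With only peaks of score 5 or more counted, the EGFR region chr7:55168994-55169600 was the 1 of the 7 that kept its pattern, and it lost it when a call had to cover 50% of the region, where the MET region chr7:116366397-116366648 was the 1 that kept its own.

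**Figure D5:**
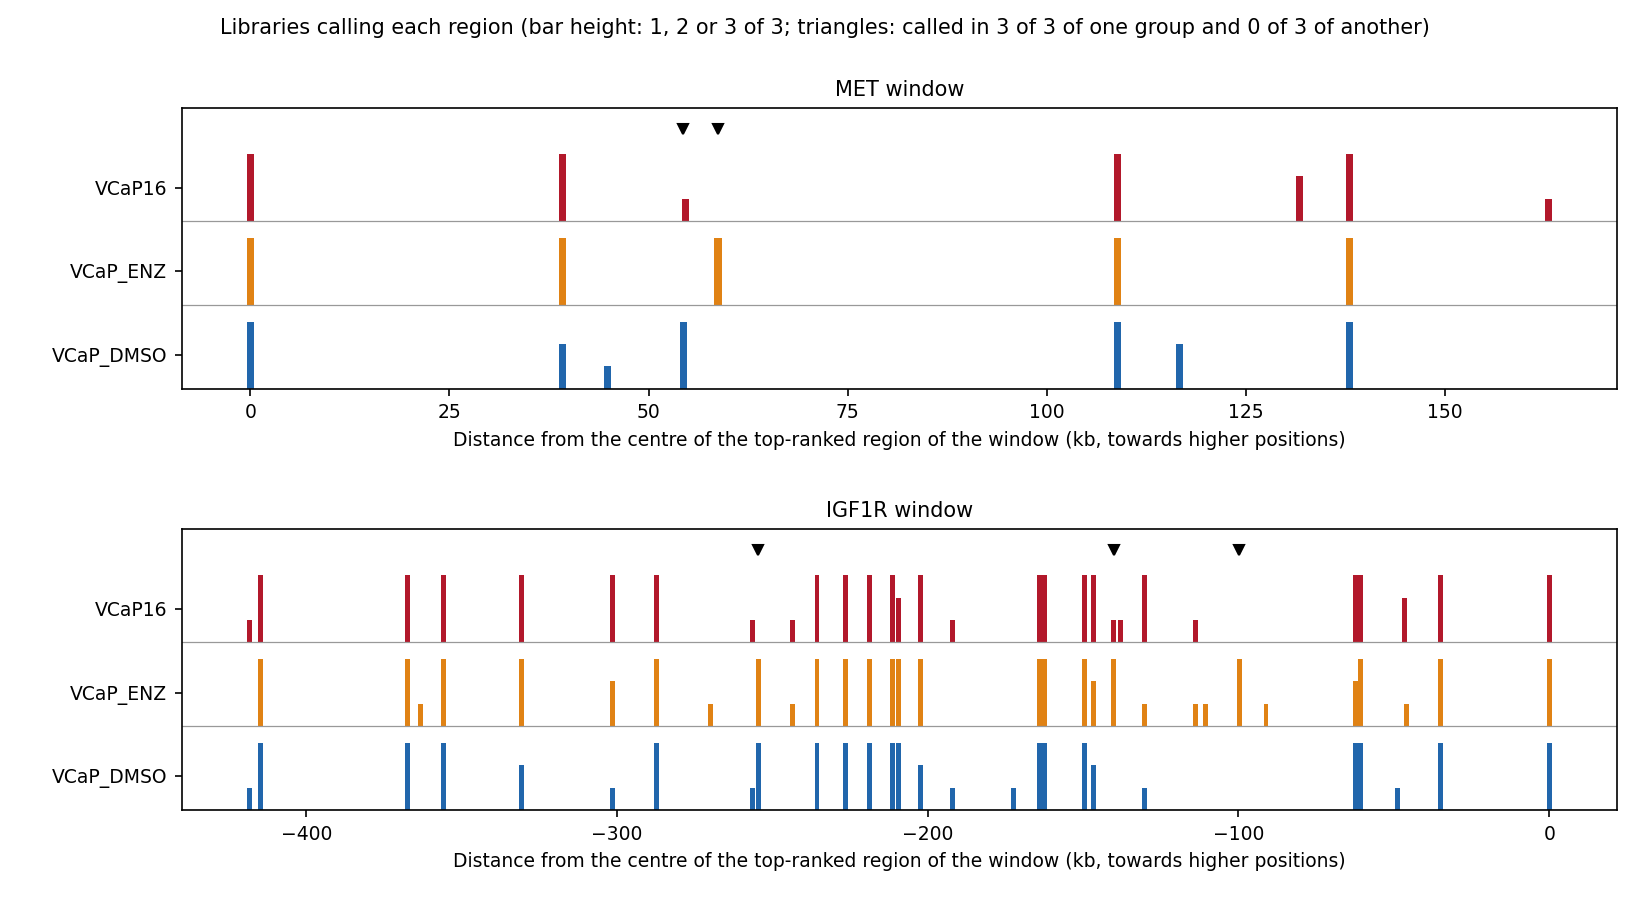
Regions of the MET and IGF1R windows by their distance in kb from the centre of the best ranked region of the window, with bar height for the number of libraries (1 to 3) that called each in VCaP16, VCaP_ENZ and VCaP_DMSO from top to bottom. Triangles mark the 2 MET and 3 IGF1R regions called in 3 of 3 libraries of a group and 0 of 3 of another, and 14 IGF1R regions reach the full height in all 3 groups.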

How the data were processed

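ATAC-seq peak lists of 9 libraries on hg19 were used. BWA 0.7.15-r1140 (an aligner), MACS2 2.2.7.1 (a peak caller) and HOMER 3.12 (a motif and annotation suite) are named, with no settings, per the submitters' processing notes. Calling thresholds and read depths are unknown. The labels' extraction text describes both crosslinked bulk ATAC-seq and a 10x single-cell preparation; each list is 1 bulk-like list per library. The deposited score is a −log10 p or q value made by the authors, and which it is was not given.

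Peaks on chromosomes 1 to 22 and X were merged over the 9 lists at 1 bp or more of overlap. Score ranks and log2 widths of the 33033 regions called in all 9 libraries were tested with limma 3.58.1 (R 4.3.3, moderated with a trend, 3 groups in 1 fit, Benjamini-Hochberg threshold 0.05), which was tested on simulated data. Width was the called bp relative to the library median. Window totals were tested by exact permutation.

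Named regions were, per window, the best ranked and the widest, those called in 3 of 3 against 0 of 3 libraries, those past 0.05, and the one with the largest difference in mean percentile between VCaP16 and VCaP_DMSO; exceptions are marked. Genes, lists and rules were chosen with earlier results of these data known. Alternatives were a score of 5 or more, 50% overlap, equal list lengths, quantile-normalised log2 scores, a replicate block, fits of 2 groups and each library left out. Promoter sequences and neighbouring genes are RefSeq's on GRCh38.p14, and no coordinates were converted.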

Additional observations from a re-analysis of the deposited data

How the results depend on the processing

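Of 635 values recomputed under other settings, 492 kept their direction and call or moved little, 121 moved, 14 lost and 2 gained a call and 6 reversed. The 492 include counts of 0 that stayed 0. They also include differences between 2 groups after a library of the third was left out, which cannot change the difference. The share kept is therefore not a measure of how firm the results are. The presence patterns depended most on the settings. With peaks of score 5 or more, the members called in 3 of 3 against 0 of 3 libraries numbered 1 for VCaP_ENZ and not VCaP_DMSO, 0 for VCaP_DMSO and not VCaP_ENZ, 2 for VCaP16 and not VCaP_DMSO, 0 for VCaP_DMSO and not VCaP16, 2 for VCaP16 and not VCaP_ENZ and 0 for VCaP_ENZ and not VCaP16, where all regions gave 532, 443, 1428, 460, 1014 and 315. With 50% overlap they were 0 for VCaP_ENZ and not VCaP_DMSO, 1 for VCaP_DMSO and not VCaP16, 2 for VCaP16 and not VCaP_ENZ and 0 for VCaP_ENZ and not VCaP16 (624, 564, 1357 and 368 of all regions). Lists of equal length gave 0 for VCaP_DMSO and not VCaP_ENZ and 1 for VCaP_DMSO and not VCaP16 (604 and 877). Asking for 2 of 3 libraries gave 3, 4, 5 and 4 for VCaP_DMSO and not VCaP_ENZ, VCaP16 and not VCaP_DMSO, VCaP_DMSO and not VCaP16, and VCaP16 and not VCaP_ENZ (2264, 5208, 1979 and 4349). Leaving out 1 library gave 3 to 4 for VCaP_ENZ and not VCaP_DMSO, 1 to 3 the other way, 0 to 3 for VCaP16 and not VCaP_DMSO, 2 to 4 the other way, 1 to 4 for VCaP16 and not VCaP_ENZ and 4 to 5 the other way, with 1005 to 1524, 824 to 1337, 2066 to 3129, 723 to 1217, 1554 to 2466 and 625 to 1121 over all regions.

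Window differences between VCaP16 and the 6 VCaP libraries turned positive in unscaled bp, at 106.5 bp for EGFR, 35.5 bp for ERBB3 and 765.7 bp for IGF1R. The IGF1R difference was 8.14 bp per Mb with score 5 or more and 12.4 with equal lists. Leaving out 1 library gave −20.3 to −1.74 for EGFR, −5.87 to 9.35 for ERBB2, −16.7 to −4.79 for ERBB3, −19.5 to −9.80 for MET, 8.03 to 18.1 for FGFR1 and −23.3 to −7.86 for IGF1R.

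For score ranks, 68 of all regions were higher in VCaP_ENZ than VCaP_DMSO in a fit of those 2 groups, which has fewer samples, against 116 in the fit of 9 libraries, and the IGF1R call of VCaP16 against VCaP_ENZ was lost there (0 members, adjusted p = 0.062). Leaving out 1 library gave 1 to 2 members higher and 0 to 1 lower for VCaP16 against VCaP_DMSO, and 0 to 1 lower for VCaP16 against VCaP_ENZ. Over all regions it gave 28 to 111 higher and 11 to 77 lower for VCaP_ENZ against VCaP_DMSO, 305 to 644 and 165 to 347 for VCaP16 against VCaP_DMSO, and 77 to 210 and 64 to 183 for VCaP16 against VCaP_ENZ. For width the fit of 2 groups called 1 region higher and 1 lower over all regions for VCaP16 against VCaP_ENZ, and leaving out 1 library gave 0 to 8 and 0 to 1, and 0 to 20 lower for VCaP_ENZ against VCaP_DMSO, with 0 members in each. Counts of members without overlap were 3 to 8 above and 1 to 4 below for VCaP_ENZ against VCaP_DMSO, 11 to 15 and 2 to 5 for VCaP16 against VCaP_DMSO, and 8 to 13 and 2 to 3 for VCaP16 against VCaP_ENZ; these, and their values at score 5 or more, were chosen after seeing the data. The causes of these shifts were not tested.

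Libraries of the same number deviated together with correlations of −0.00557 to 0.0455, so the numbers were not treated as pairs. Between VCaP_DMSO and VCaP_ENZ, pairs of the same number gave 0.0106, 0.0455 and 0.0234. These lay above all pairs of different numbers in the same 2 groups, at −0.0339 to 0.00977, so a weak pairing there is not excluded. With the number as a replicate block, 1 member was lower in VCaP16 than VCaP_DMSO, the ERBB3 region chr12:56511681-56512537 (adjusted p = 0.0451), and it changed no other call among members. Score ranks cannot show a change shared by all regions, and read depth, which limits weak calls, is unknown.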
